A study of Mus musculus with 4 samples.

Results

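The JUN, BATF, MAF and BACH proteins are transcription factors with a basic leucine zipper (bZIP), and the transcripts of 10 of them (Jun, Junb, Jund, Batf, Batf3, Atf3, Maf, Mafk, Bach1 and Bach2) were followed here in cultures started from CD4+ T cells of WT mice and of mice with a T-cell deletion of the genes for the kinases MEK1 and MEK2. The members were taken by gene symbol from the counted genes, and all 10 were found among 54752 listed genes. The zipper pairs 1 factor with another, and the basic region of the pair reads a short DNA site. JUN proteins pair with FOS proteins to form AP-1, a factor downstream of the T-cell receptor, the costimulatory receptor CD28 and the MAP kinases, while BATF pairs with JUN proteins and binds composite sites with IRF4 in helper T cells. Small MAF proteins pair with BACH1, BACH2 or NRF2, and BACH2 restrains effector genes in lymphocytes, so that the set of bZIP factors in a cell sets which pairs can form.

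RNA was sequenced from 2 WT and 2 Mek1/2-tKO libraries. The cells were splenic naïve CD4+ T cells that had been stimulated through CD3 and CD28 with IL-6 and with antibodies blocking TGF-β, IL-4, IFN-γ and IL-2, which skews them towards T follicular helper (Tfh) cells, and the viable cells were collected on day 3. Mek1/2-tKO mice carried Map2k1 fl/fl and Map2k2 fl/fl alleles and Cd4-Cre, and WT mice were littermates, the floxed alleles having been made on a C57BL/6 background. Cd4-Cre is known to act from the CD4+CD8+ thymocyte stage on, so that deletion is meant to precede the culture and to take in CD8 as well as CD4 T cells. The age of the donor mice, the number of mice behind a library and whether the replicates were separate animals are not given in the sources used here, so p-values measure the spread between these libraries.

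The library totals lay between 16330802 and 18931090 counts, and 14330 genes had enough counts to be tested. Levels are given as CPM, the counts scaled to a common library size, after TMM scaling, which adjusts for differences in library composition. The log2 fold change is Mek1/2-tKO over WT. Calls needed both a 1.5-fold difference and a Benjamini-Hochberg adjusted p below 0.05 by the quasi-likelihood method of edgeR. With 2 libraries in each genotype the smallest two-sided p of an exact permutation test is 0.33, and the adjusted p-values therefore depend on the variance that edgeR estimates from all genes together. Of the targeted genes, Map2k1 had a log2 fold change of -0.86 and passed, and Map2k2 had 0.15 and did not (whole-gene counts also take in transcripts that lack the floxed exons). The T-cell label and the other cell types were checked with marker lists. Of 13 T-cell markers 1 was called higher (Thy1, log2 fold change 0.83), 6 were called lower and 6 were not called. Cd4 had the largest difference of the 13, going from 297 and 289 CPM in WT to 18.8 and 25.1 CPM in Mek1/2-tKO. Those not called were Cd3d (0.20), Cd3g (0.24), Trbc1 (0.16), Trbc2 (-0.029), Lat (-0.55) and Lck (-0.54). Of 20 B-lineage markers 18 were called higher and 1 lower, and their summed level went from 1984 to 2016 CPM in WT to 9638 to 9716 CPM in Mek1/2-tKO. The 8 tested of 15 myeloid and dendritic-cell markers were all called higher (9.85 to 10.7 CPM summed over the 15 in WT, 42.4 to 52.3 CPM in Mek1/2-tKO), as were 8 of 9 NK-cell markers, the other being called lower (98.0 to 102 CPM in WT, 603 to 652 CPM in Mek1/2-tKO) and all 4 tested of 5 gamma-delta T-cell markers (3.53 to 6.06 CPM in WT, 118 to 136 CPM in Mek1/2-tKO). The Mek1/2-tKO libraries are therefore named here by their label. Their Cd4 level does not bear out CD4+ T cells, while Map2k1 was lower in them and Map2k2 was not. Whole-gene counts cannot settle the deletion of either gene, for the reason given above. S100a8, Clec9a, Siglech and Adgre1 among the myeloid markers and Trdv4 among the gamma-delta markers were at 0 counts in both WT libraries. The part of these other cells in the values given here was not tested, and in bulk RNA fewer cells of a type and less RNA per cell cannot be told apart.

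Jun and Batf3 were about 3 times higher in Mek1/2-tKO than in WT cells, and Atf3 was lower by a like factor. Jund was moderately higher, Junb and Bach2 were moderately lower, and Batf, Maf, Mafk and Bach1 did not pass the test. Of the 10 members, 2 were called higher and 1 lower, beside 19.3% and 16.4% of all tested genes, and 35.8% of all tested genes were called in either direction. Without the fold-change threshold 3 members passed as higher and 3 as lower, where 27.8% and 27.2% of all tested genes did and 55.0% in either direction. At a fold change of at least 2 the same counts of 2 higher and 1 lower were found, beside 12.0% and 7.26% of all tested genes (19.3% in either direction), and DESeq2 also called 2 higher and 1 lower, beside 27.8% of the genes it tested. The WT and Mek1/2-tKO values did not overlap for 9 of the 10 members, 5 being higher and 4 lower in Mek1/2-tKO, against 39.5% higher and 38.8% lower among all tested genes (78.3% together). The share of members called was thus close to the background, and the median log2 fold change was 0.097 over the members and 0.015 over all tested genes.

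**Figure D1:**
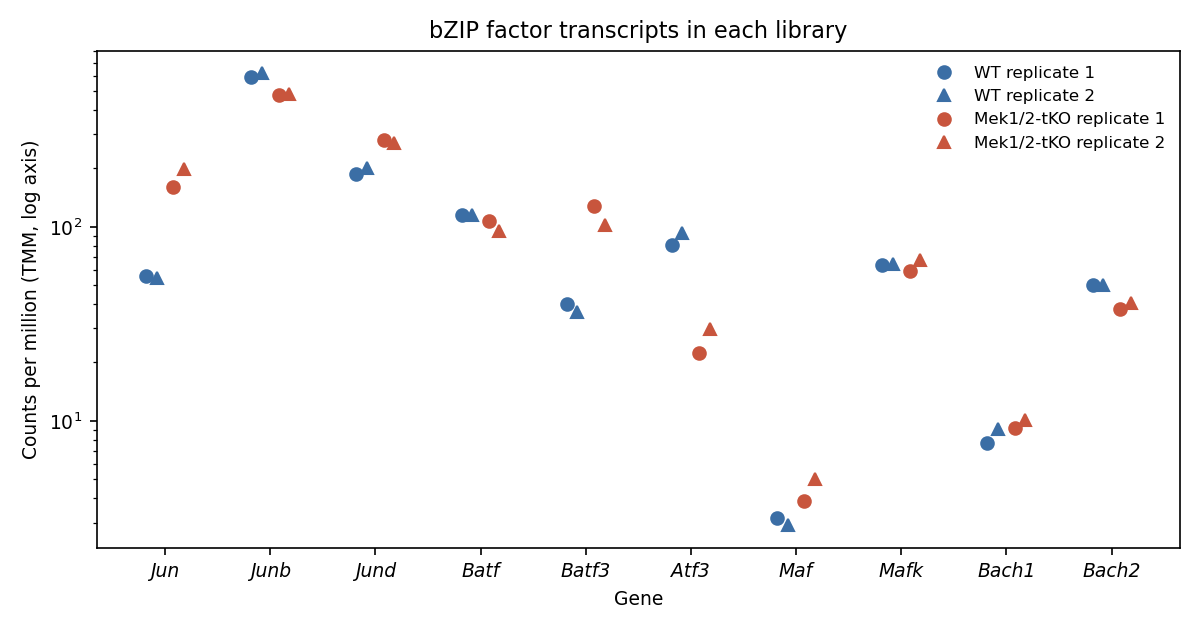
Level of each of the 10 bZIP members (CPM after TMM scaling, log axis) in the 4 libraries, with circles for replicate 1, triangles for replicate 2, blue for WT and red for Mek1/2-tKO. Jun and Batf3 lie higher and Atf3 lower in both Mek1/2-tKO libraries, and the values of the genotypes overlap for Mafk.

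Jun encodes c-JUN, a partner of the FOS proteins whose activity is raised by JNK phosphorylation. Jun (ENSMUSG00000052684.4, GRCm38 chromosome 4, 95049034 to 95052222, minus strand, a gene of 1 exon) had 55.5 and 54.6 CPM in WT and 160 and 199 CPM in Mek1/2-tKO. Both Mek1/2-tKO libraries lay above both WT libraries, and the gap between the genotypes was wider than the spread within either. The log2 fold change was 1.71 ± 0.11 (SE; edgeR quasi-likelihood, adjusted p = 1.86e-08). Leaving out each library in turn gave 1.53 to 1.85, all of which passed. The antisense gene Junos shares 7.28% of the exon bases and had between 1 and 16 counts, where Jun had between 1052 and 3737.

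Jund encodes a JUN protein that is present in many resting cells and is less dependent on stimulation than c-JUN. Its level (ENSMUSG00000071076.6, chromosome 8, 70698949 to 70700616, plus strand, 1 exon) was 186.5 and 202 CPM in WT and 279 and 271 CPM in Mek1/2-tKO. These values do not overlap, and the log2 fold change of 0.50 ± 0.08 (SE; edgeR quasi-likelihood, adjusted p = 8.42e-05) passed the p threshold but not the fold threshold. A gene on the other strand, Gm11175 (877 bases), shares 52.6% of the exon bases of Jund and had 0 counts in every library. The strand setting of the counting is not given. If strand was ignored, reads in the shared bases may have been given to neither gene. The 0 counts therefore cannot show that the overlap took no reads from Jund, and its level may be too low. The value fell to 0.21 when the trend of fold change with exon length was taken out.

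JunB, the product of Junb, is an immediate-early JUN protein that works with BATF in helper T cells. Junb (ENSMUSG00000052837.6, chromosome 8, 84974484 to 84978718, minus strand) had the highest CPM of the members, with 592 and 616 CPM in WT and 477 and 481 CPM in Mek1/2-tKO. Both Mek1/2-tKO libraries were lower, with a log2 fold change of -0.34 ± 0.07 (SE; edgeR quasi-likelihood, adjusted p = 0.00142), which is under the fold threshold. Without WT replicate 2 the adjusted p was 0.0732 in the same test, and with the length trend taken out the log2 fold change was -0.54. The 3 JUN genes therefore did not move in 1 direction: Jun and Jund had positive and Junb had a negative difference.

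Atf3 encodes a stress-inducible bZIP protein of the ATF/CREB family that can repress inflammatory genes. It had 80.8 and 93.0 CPM in WT and 22.3 and 29.7 CPM in Mek1/2-tKO (ENSMUSG00000026628.13, chromosome 1, 191170296 to 191218039, minus strand). Every Mek1/2-tKO value was below every WT value. With a log2 fold change of -1.73 ± 0.13 (SE; edgeR quasi-likelihood, adjusted p = 1.65e-07), Atf3 was the only member called lower, and the values with each library left out ranged from -1.97 to -1.55.

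Batf3 encodes a small bZIP protein that lacks a transactivation domain, pairs with JUN proteins and is required for cross-presenting dendritic cells. Batf3 lies on the same chromosome as Atf3 (ENSMUSG00000026630.9, chromosome 1, 191097847 to 191108945, plus strand) and moved the other way, with 39.8 and 36.4 CPM in WT and 129 and 102 CPM in Mek1/2-tKO. The log2 fold change was 1.60 ± 0.12 (SE; edgeR quasi-likelihood, adjusted p = 1.02e-07) and 1.43 to 1.75 with each library left out. The 8 tested of 15 myeloid and dendritic-cell markers moved with it. Clec9a, a marker of cross-presenting dendritic cells, had 0 counts in WT and 4 and 5 counts in Mek1/2-tKO, and Zbtb46, found in conventional dendritic cells, had 136 and 119 counts in WT and 269 and 280 in Mek1/2-tKO. Clec9a had too few counts to be tested, as had Xcr1 and Fcgr1 of the same list, whose values overlapped between the genotypes. Xcr1 had 4 and 2 counts in WT and 16 and 2 in Mek1/2-tKO, and Fcgr1 had 4 and 4 against 4 and 2. The part of dendritic cells in the Batf3 level was not tested.

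Batf, whose product works with IRF4 and JUN proteins in T-cell differentiation, had 114 and 115 CPM in WT and 107 and 95.2 CPM in Mek1/2-tKO (ENSMUSG00000034266.6, chromosome 12, 85686669 to 85709087, plus strand). The Mek1/2-tKO values were both lower, but the log2 fold change of -0.19 ± 0.09 (SE; edgeR quasi-likelihood, adjusted p = 0.0908) did not pass. It passed the p threshold, but not the fold threshold, without Mek1/2-tKO replicate 1, at -0.27 with an adjusted p of 0.00537 in the same test, and with scaling by library size alone, at -0.27 with 0.0165. With the length trend taken out it was -0.49.

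**Figure D2:**
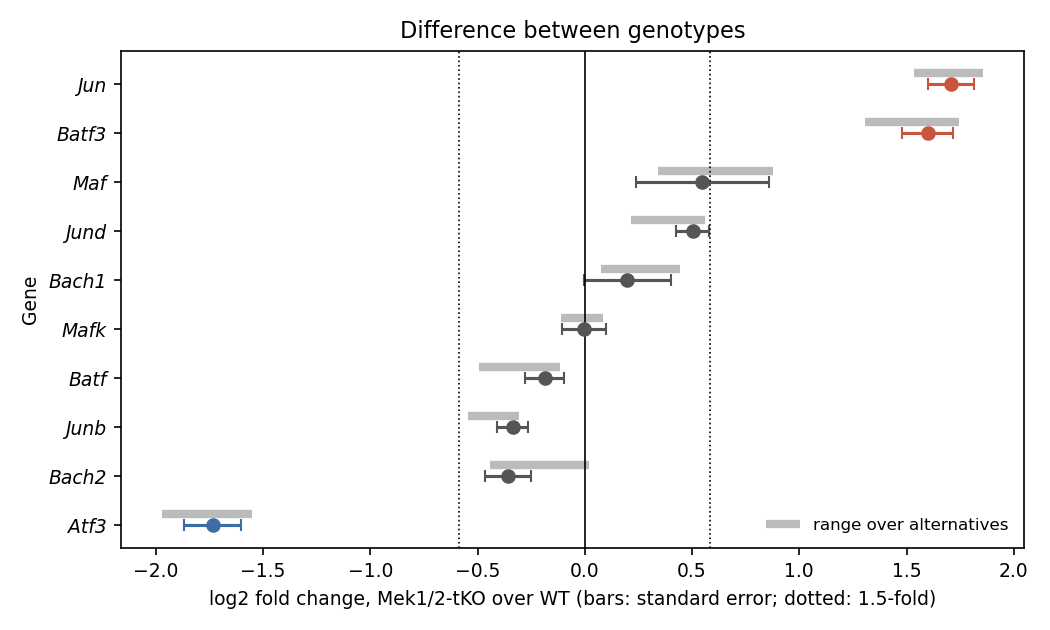
Log2 fold change of each member, Mek1/2-tKO over WT (x axis), with bars for the standard error of edgeR's fit and dotted lines at a 1.5-fold difference. Jun (1.71) and Batf3 (1.60) lie beyond the right line, Atf3 (-1.73) beyond the left, and the other 7 members between the lines.

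None of the MAF and BACH members passed both thresholds. Maf, which encodes the large MAF factor c-MAF of IL-4, IL-10, IL-21 and Tfh programmes, was the scarcest member with 62 and 56 counts in WT and 60 and 94 in Mek1/2-tKO, or 3.18 and 2.90 CPM against 3.88 and 5.01 CPM (ENSMUSG00000055435.6, chromosome 8, 115682942 to 115707794, minus strand). The Mek1/2-tKO replicates differed by nearly as much as the genotype means did, and the log2 fold change of 0.55 ± 0.31 (SE; edgeR quasi-likelihood, adjusted p = 0.149) did not pass. Mafk, which encodes a small MAF protein without a transactivation domain, had 63.2 and 64.5 CPM in WT and 59.4 and 67.7 CPM in Mek1/2-tKO (ENSMUSG00000018143.10, chromosome 5, 139791513 to 139802653, plus strand). The Mek1/2-tKO values enclosed the WT values, and the log2 fold change was -0.0041 ± 0.10 (SE).

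Bach1 encodes a heme-sensitive repressor of antioxidant genes, and Bach2 a repressor that restrains effector genes in T cells and plasma-cell genes in B cells. Bach1 had 7.70 and 9.13 CPM in WT and 9.17 and 10.1 CPM in Mek1/2-tKO (ENSMUSG00000025612.5, chromosome 16, 87698945 to 87733346, plus strand), and its log2 fold change of 0.20 ± 0.20 (SE; edgeR quasi-likelihood, adjusted p = 0.43) did not pass. Bach2 had 50.3 and 50.1 CPM in WT and 37.6 and 40.7 CPM in Mek1/2-tKO (ENSMUSG00000040270.16, chromosome 4, 32238804 to 32586108, plus strand). Both Mek1/2-tKO libraries were lower, and the log2 fold change was -0.36 ± 0.11 (SE; edgeR quasi-likelihood, adjusted p = 0.0116), a p that passed while the fold did not. With either WT library left out the adjusted p was 0.0748 or 0.0706, and with the length trend taken out the value turned to 0.021, Bach2 having the longest exon length of the members (9940 bases).

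Levels of different genes can be compared only per length, and the following values are levels in CPM per kilobase of exon. In WT the order was Junb (263), Jund (116), Batf (81.7), Atf3 (40.3), Batf3 (23.9), Jun (17.3), Mafk (16.4), Bach2 (5.05), Bach1 (1.36) and Maf (0.369), and no neighbours in it overlapped. In Mek1/2-tKO it was Junb (208), Jund (165), Batf3 (72.3), Batf (71.8), Jun (56.3), Mafk (16.3), Atf3 (12.1), Bach2 (3.94), Bach1 (1.56) and Maf (0.539). Batf3 and Batf overlapped there, at 64.2 to 80.5 for Batf3 and 67.7 to 75.8 for Batf. Batf3 and Jun thus moved up the order, Atf3 moved below Mafk, and Junb and Jund stayed at the head of it. The place of Jund below Junb depends on how reads in the bases shared with Gm11175 were counted, which is not given.

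The make-up of the JUN genes changed accordingly, as the level per length of each over their sum. Jun made up 4.50 and 4.22% in WT and 11.8 and 14.4% in Mek1/2-tKO, while Jund made up 28.9 and 29.8% and then 39.4 and 37.4%. The share of Junb went from 66.6 and 66.0% to 48.7 and 48.2%. The genotypes did not overlap for any of the 3 shares, and the exact permutation p of each was 0.33, the smallest that 2 libraries against 2 allow. The 3 shares add to the whole and so are not independent, and the levels of 78.3% of all tested genes did not overlap either. They also depend on the level of Jund, which may be too low because of the bases shared with Gm11175. The level per length of Jun was 0.0677 and 0.0639 of that of Junb in WT, and 0.243 and 0.298 of it in Mek1/2-tKO.

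Among Batf, Batf3 and Atf3, the share of Batf3 was 17.3 and 15.4% in WT and 48.3 and 44.1% in Mek1/2-tKO. That of Atf3 was 26.1 and 29.2% in WT and 6.22 and 9.46% in Mek1/2-tKO, and Batf held 56.6 and 55.4% and then 45.5 and 46.5%. The level per length of Batf3 was 0.307 and 0.278 of that of Batf in WT, and 1.06 and 0.948 of it in Mek1/2-tKO. Bach2 held 80.2 and 77.3% of the level of the BACH genes in WT and 71.8 and 71.4% in Mek1/2-tKO, Bach1 holding the rest. None of these shares overlapped between the genotypes, and each has the exact permutation p of 0.33. Here too the shares of a group depend on each other, and the levels of 78.3% of all tested genes did not overlap.

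**Figure D3:**
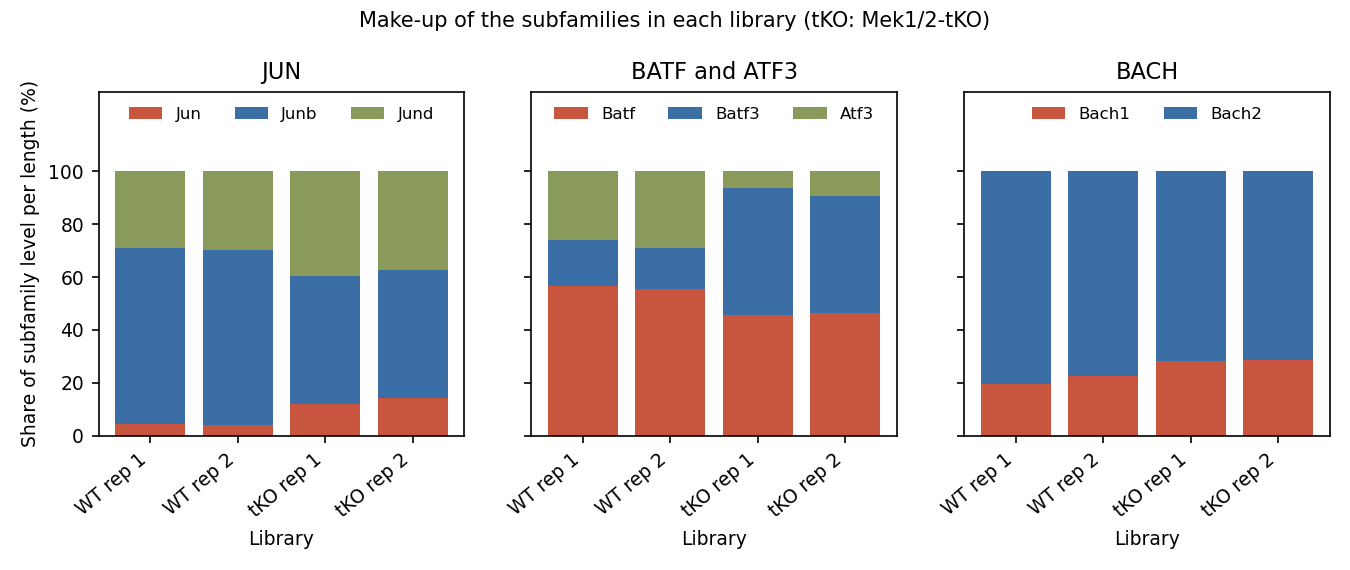
Share of each gene in the level per length (%) of the JUN genes, of Batf, Batf3 and Atf3 and of the BACH genes, as stacked bars for each library (tKO: Mek1/2-tKO). Junb falls from 66.6 and 66.0% to 48.7 and 48.2%, and Batf3 takes 48.3 and 44.1% of its bar in place of 17.3 and 15.4%.

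For the called members, a window upstream of the start was printed if little of it lay in exons of the members. Batf3 was left out, with 65.2% of its window in such exons. The windows just upstream of Jun and Atf3, genes called in opposite directions, are printed, and both hold the CRE-like letters that JUN and ATF proteins are known to read. They are the 250 bases before the RefSeq start in GRCm38.p6, from chr4:95052223-95052472 (minus strand) for Jun and chr1:191183334-191183583 (minus strand) for Atf3, written 5′ to 3′ with matches to TNACNTCA in capitals.
Jun: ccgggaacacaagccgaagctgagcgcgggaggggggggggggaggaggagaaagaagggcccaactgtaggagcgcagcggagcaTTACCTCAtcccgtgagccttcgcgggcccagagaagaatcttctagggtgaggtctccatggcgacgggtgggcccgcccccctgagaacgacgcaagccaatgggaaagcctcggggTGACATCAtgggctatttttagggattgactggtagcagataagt
Atf3: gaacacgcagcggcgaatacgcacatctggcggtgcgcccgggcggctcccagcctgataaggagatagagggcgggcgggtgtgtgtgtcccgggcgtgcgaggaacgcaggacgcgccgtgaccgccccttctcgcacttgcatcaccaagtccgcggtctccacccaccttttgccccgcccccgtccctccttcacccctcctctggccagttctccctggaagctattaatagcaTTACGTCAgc
The match in Atf3 starts 10 bases before the start, and those in Jun start 164 and 45 bases before it. The start of Atf3 used here lies within the longer span of the gene in the annotation of the files.

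Windows of the same length were available for 9 of the 10 members and for 32851 starts in all, and both strands were searched. TNACNTCA, which includes the CRE letters TGACGTCA, occurred in 3 of the 9 member windows (Atf3, Jun and Jund) and in 14.0% of all windows. The window of Jund ends at base 70697738 of chromosome 8, short of base 70698949, where the gene begins in the annotation of the files. TGACGTCA and the AP-1 letters TGANTCA occurred in none of the 9, and in 1.55% and 6.75% of all windows. TGACNNNGC, read by small MAF pairs, occurred in 1 of the 9 (Mafk) and in 10.2% of all, the GC box GGGCGG in 6 and in 32.7%, and CCAAT in 3 and in 33.9%. The relaxed letters were chosen after the sequences were read, and a match describes letters in this window and says nothing of binding.

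The remaining bZIP genes hold the partners of these members. Of 42 such genes 34 were tested, with 5 called higher and 8 lower, beside 19.3% and 16.4% of all tested genes, and a median log2 fold change of -0.15. Among the FOS genes, the partners of the JUN proteins, Fosl2 had 55.7 and 54.7 CPM in WT and 13.8 and 15.3 CPM in Mek1/2-tKO, a log2 fold change of -1.92 (edgeR quasi-likelihood, adjusted p = 2.43e-08). Fos was lower at a low level, from 7.54 and 5.29 to 3.88 and 3.09 CPM (log2 fold change -0.89, edgeR quasi-likelihood, adjusted p = 0.0187), and Fosb (-0.26) did not pass. Fosl1, named after its values were seen, was called higher at 0.66, with 5.80 and 5.86 CPM in WT and 9.04 and 9.37 CPM in Mek1/2-tKO. The FOS genes, like the JUN genes, did not move in 1 direction.

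Of the others called lower, Creb3l2 had a log2 fold change of -1.19 and Nfil3, whose product is a repressor also required for NK cells, -1.17. Jdp2, which encodes a JUN dimerization protein, was called higher at 0.69. Cebpa, Cebpd and Nfe2, factors of myeloid and megakaryocytic cells, were also called higher, on few counts, with 0 and 6 counts of Cebpa in WT and 30 and 16 in Mek1/2-tKO, 8 and 9 against 26 and 36 of Cebpd, and 12 and 22 against 61 and 56 of Nfe2. These 3 moved with the myeloid markers given above, whose part in the counts was not tested, whereas Cebpb, another C/EBP factor of myeloid cells, named after its values were seen, was called lower at -0.79, from WT levels of 38.0 and 30.3 CPM to Mek1/2-tKO levels of 20.1 and 19.4 CPM.

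**Figure D4:**
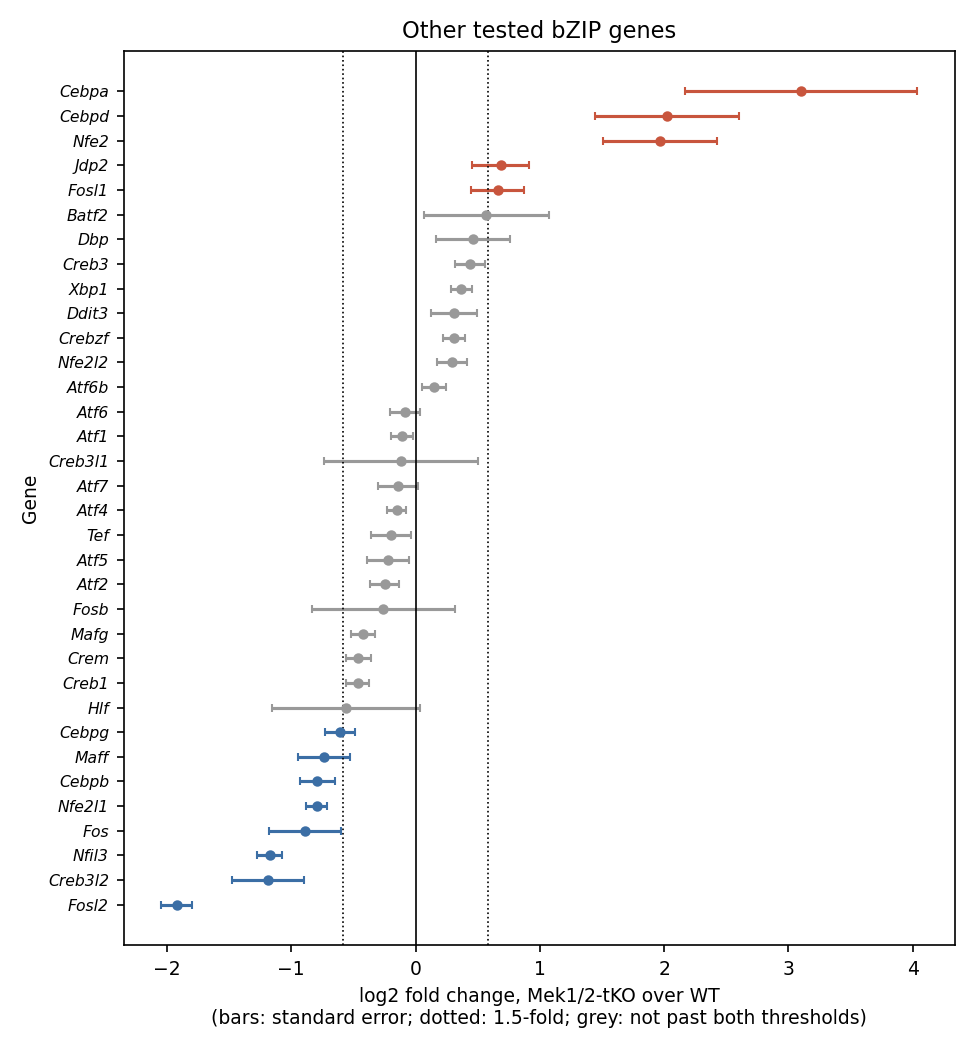
Log2 fold change, Mek1/2-tKO over WT (x axis), of the 34 other bZIP genes that were tested, with bars for the standard error, dotted lines at a 1.5-fold difference and color for the genes called higher (red) or lower (blue). Fosl2 (-1.92) lies at the lower end, and Cebpa, with few counts, at the upper.

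BATF, JUN and MAF proteins bind next to other factors, and 8 such partners were read. For this list and the next 4, the shares of all tested genes to set beside the counts are again 19.3% called higher and 16.4% called lower. By edgeR's quasi-likelihood test 0 were called higher and 3 lower, 0 were higher at an unadjusted p under 0.05, and DESeq2 also called 0 and 3, with a median log2 fold change of -0.49. Irf4, which encodes the partner of BATF and JUN at composite sites, had 578 and 550 CPM in WT and 186 and 209 CPM in Mek1/2-tKO, a log2 fold change of -1.51 (edgeR quasi-likelihood, adjusted p = 4.19e-09). Nfatc2, whose product pairs with AP-1 on cytokine genes, had -1.72 and Stat3 had -0.68. With the length trend taken out 2 of these partners were called lower, and with scaling by library size alone 4 were. Of the 11 tested genes of the JNK pathway and JUN turnover, 0 were called higher and 3 lower by edgeR's quasi-likelihood test (Map3k4 -0.93, Fbxw7 -0.82 and the JNK1 gene Mapk8 -0.74), and the 3 were no longer called once the length trend was taken out. DESeq2 also called 0 and 3. Without the fold threshold, 1 of the 11 (Cops5, 0.36) passed as higher and 6 as lower, and 1 was higher at an unadjusted p under 0.05.

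Among 18 antioxidant and heme genes known as targets of BACH1, NRF2 and small MAF proteins, 7 were called higher and 4 lower (median 0.21). The higher count was 5 by DESeq2, without a filter, with at least 10 counts in every library, with the replicate block and with any library left out. Nqo1, a quinone reductase (2.42), Me1 (1.73) and Osgin1 (1.58) had the largest differences among those called higher, all on few counts. Nqo1 had 23 and 8 counts in WT and 58 and 91 in Mek1/2-tKO, Me1 had 8 and 6 against 22 and 19, and Osgin1 had 10 and 10 against 20 and 34. Srxn1, which encodes sulfiredoxin, followed at 1.43 with 130 and 143 counts in WT and 282 and 370 in Mek1/2-tKO. Abcc1 (-1.20), Slc7a11 (-1.02), Pgd (-0.76) and Tkt (-0.61) were called lower, and the number called lower was 1 with the length trend taken out and 2 without WT replicate 2. Of 11 tested genes known to be repressed by BACH2 in lymphocytes, 2 were called higher (Il1rl1 3.43 and Il13 1.33) and 5 lower, among them Gata3 (-2.10), Il12rb2 (-1.71), Ccr4 (-1.63) and Il12rb1 (-1.50), and the list median was -1.01. Il12rb2 shares a large part of its exon bases with Serbp1 on the other strand. Of 13 tested helper T-cell genes known as targets of MAF or BATF, 7 were called higher and 3 lower, with a median of 0.89. Il17f (5.91), Il22 (5.08), Il17a (4.58) and Bcl6 (1.85) led the higher genes, and Ctla4 (-2.97), Il21 (-2.53) and Icos (-1.37) were lower. The gamma-delta T-cell and NK-cell markers, which are found in cells that can also make IL-17 or IL-22, moved with the higher genes. So did most B-lineage markers, and the part of all these cells was not tested.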

How the data were processed

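RNA-seq of 2 WT and 2 Mek1/2-tKO libraries was used, grouped by their labels. The authors trimmed the reads of 150 nucleotides with Trimmomatic 0.36, mapped them to GRCm38, assigned them to genes with featureCounts (Subread 1.5.1) and deposited raw gene counts with each gene's length, with no normalization; the annotation release and the strand setting are not given in the sources used here. Symbols were matched for 54723 of 54752 identifiers with GENCODE names, and 0 rows named no gene.

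Counts were filtered (filterByExpr), TMM-scaled and tested with edgeR 4.0.16 (robust quasi-likelihood fit, Benjamini-Hochberg adjustment over 14330 genes) in R 4.3.3. The call thresholds were 0.05 for the adjusted p and 1.5 for the fold change. CPM were divided by the deposited length for levels between genes. Replicates differed beyond sampling noise (chi-square per gene 4.11 in WT and 10.7 in Mek1/2-tKO), and the common dispersion was 0.00842. Where no count was seen the limit is 3 counts (0.158 to 0.184 CPM), for counting error only. The alternatives comprised the Wald test of DESeq2 1.42.0, edgeR's likelihood-ratio test, other scalings and filters, a replicate block, other thresholds, leaving out each library and taking out a lowess trend (span 0.3) on exon length; a trend on GC content was added after the data were seen. RefSeq promoter windows came from the same build.

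The members and lists were chosen with earlier results of these data known. All 10 members, the targeted genes and, in each list, up to 4 called genes per direction by size were named. ATAC-seq and in vivo RNA-seq of the study were not used here.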

Additional observations from a re-analysis of the deposited data

How the results depend on the processing

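Jun, Batf3 and Atf3 kept their calls under every alternative run, with log2 fold changes of 1.53 to 1.85, 1.30 to 1.75 and -1.97 to -1.55. A fold change of at least 2 left 1725 genes higher and 1040 lower, and the adjusted p alone put 3 members lower. Other bZIP genes called higher numbered 3 with at least 10 counts in every library and 3 with the length trend taken out, and 3 to 5 with each library left out. Taking out the length trend turned Bach2 to 0.021 and Mafk to 0.028, and Mafk was also above 0 with at least 10 counts (0.014), while it lay between -0.11 (without Mek1/2-tKO replicate 2) and 0.087 (without Mek1/2-tKO replicate 1) with each library left out. Without dividing by length, the shares in WT and Mek1/2-tKO were 6.45 and 19.2% for Jun, 70.8 and 51.3% for Junb, 22.7 and 29.5% for Jund, 47.9 and 41.6% for Batf, 36.2 and 10.9% for Atf3, 14.3 and 19.8% for Bach1 and 85.7 and 80.2% for Bach2. The cause of the changes with length was not tested.

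Same-numbered libraries did not deviate together across genes (correlation -0.0242). With 2 libraries in each genotype this cannot show that the numbers pair nothing. Whether same-numbered libraries share a batch is not given in the sources used here. A fit with the replicate block called 2652 genes higher and 2300 lower, with 2 members higher and 1 lower. Scaling by library size alone gave 2388 and 2848 and moved the median of all genes from 0.015 to -0.07. Maf and Bach1 had the fewest counts of the members, under 200 in each library.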
